A study of Homo sapiens with 6 samples.

Results

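The 10 genes described here are ATF4, DDIT3, TRIB3, ASNS, CHAC1, PPP1R15A, EIF2AK3, SESN2, DDIT4 and VLDLR, which belong to the PERK, ATF4 and CHOP arm of the integrated stress response. They were chosen by name, with earlier results of these data known. Their Ensembl identifiers were found among the 60612 genes of the count table. All 10 passed the filter on low counts that left 20334 genes for testing. RNA came from T24, a human cell line established from a bladder cancer, after infection with a lentivirus that carries a short hairpin and selection with puromycin. In 3 libraries, labelled FOXF1-activated, the hairpin (Lenti-dsFOXF1-367) was made from a small activating RNA, a short duplex meant to raise transcription of its target, here the forkhead factor gene FOXF1. The other 3 libraries, labelled negative control and WT, carried the control hairpin Lenti-dsControl, so both groups had the virus and the antibiotic. The labels do not say whether replicates were separate cultures or draws from 1 selected pool. The p-values therefore speak of library-to-library spread, part or all of which may be technical.

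The integrated stress response starts with kinases that phosphorylate the initiation factor eIF2. PERK answers unfolded protein in the endoplasmic reticulum, GCN2 answers uncharged tRNA, PKR answers double-stranded RNA, and HRI answers haem shortage and mitochondrial stress. Phosphorylated eIF2 slows most translation but favours that of ATF4, a leucine zipper transcription factor that then raises genes of amino acid supply and, with CHOP, genes that end the response or lead to cell death. ATF4 protein is therefore set largely by translation, and the libraries measure RNA only.

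Library totals ran from 72765654 to 76358542 counts in the libraries labelled FOXF1-activated and from 72500854 to 77198669 in the negative controls. FOXF1, the targeted gene, went against its label, with 5.27 ± 0.60 CPM across the libraries labelled FOXF1-activated and 7.52 ± 0.43 CPM in the negative controls (SD, n = 3 each; edgeR adjusted p = 0.0109). Every direction below is that of the libraries labelled FOXF1-activated. Levels are CPM, counts set to a common library total, after scaling by the trimmed mean of M values (TMM), and a gene was called at an edgeR quasi-likelihood adjusted p under 0.05 over all tested genes. Errors after a log2 fold change are standard errors and errors after a CPM are SDs of 3 libraries. Fibronectin transcripts (FN1) took 0.277 to 0.286% of counts in the libraries labelled FOXF1-activated and 3.22 to 3.39% in the negative controls, and mitochondrial transcripts took 6.44 to 7.27% in the libraries labelled FOXF1-activated and 5.04 to 5.43% in the negative controls. The part of this shift in the results was not tested. Of 15 epithelial and urothelial markers, 8 were tested and 4 (KRT5, UPK1A, UPK3A and TP63) had 0 counts in all 6 libraries. The summed level of the list was 1221 to 1307 CPM across the libraries labelled FOXF1-activated and 1712 to 1837 CPM in the negative controls, most of it from KRT7, KRT8 and KRT18, while EPCAM reached at most 1.07 CPM. The 4 mesenchymal markers, FN1 among them, summed to 5146 to 5541 CPM across the libraries labelled FOXF1-activated and 34050 to 36610 CPM in the negative controls. Most of that difference was FN1, and VIM and CDH2 fell too, while SPARC rose to 493.5 CPM in the libraries labelled FOXF1-activated, against 319.6 CPM in the negative controls. The 8 leukocyte and endothelial markers summed to 28.9 to 39.1 CPM across the libraries labelled FOXF1-activated and 26.1 to 31.6 CPM in the negative controls. Of the 7 tested, 3 (VWF, PTPRC and CD3E) were called higher and 1 (CD14) lower. VWF averaged 2.97 CPM in the libraries labelled FOXF1-activated and 0.25 CPM in the negative controls. CD14 averaged 0.87 CPM in the libraries labelled FOXF1-activated and 5.80 CPM in the negative controls. Fewer cells with a transcript and less of it per cell cannot be told apart in bulk RNA.

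All 10 genes were called, 8 higher and 2 lower, but calls were common everywhere: 60.7% of tested genes were called, 29.2% higher and 31.5% lower, a balance that turned with another library scaling. Among the 11250 tested genes with a mean of at least 5 CPM, 4131 were higher and 4649 lower. The median log2 fold change was 0.82 over the 10 genes and -3.2e-05 over all tested genes. A change of at least 2-fold was called for 5 of the 10 genes, against 28.8% of tested genes. The 3 libraries of each label did not overlap for any of the 10 genes, which held for 68.8% of tested genes. The rises of DDIT3, TRIB3, PPP1R15A and SESN2 stood beside falls of CHAC1 and DDIT4, so the 10 genes did not move as 1 block.

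**Figure D1:**
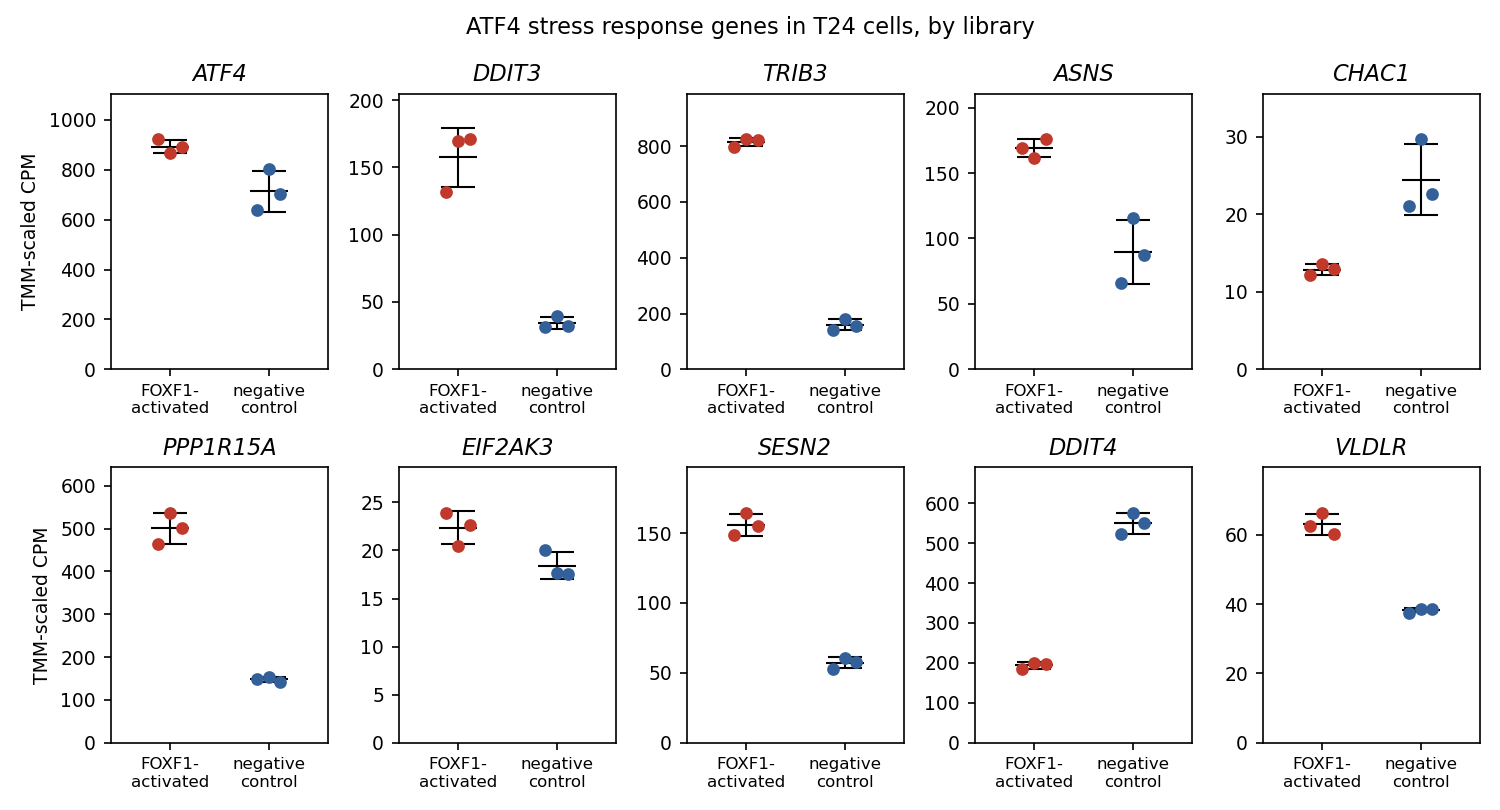
Level of each stress response gene in TMM-scaled CPM (vertical axes from 0, a scale per gene). Points are the 3 libraries labelled FOXF1-activated and the 3 negative controls, and bars are the mean and SD. TRIB3 sits at 797 to 824 CPM in the libraries labelled FOXF1-activated and 142 to 181.5 CPM in the negative controls, while DDIT4 sits at 184 to 199.6 CPM in the first and 523 to 575.5 CPM in the negative controls.

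EIF2AK3 encodes PERK, the eIF2 kinase of the endoplasmic reticulum membrane (chromosome 2, 88556741 to 88627576, minus strand; all gene positions are those of GENCODE 29 on GRCh38). Its level was 23.9, 20.5 and 22.7 CPM across the libraries labelled FOXF1-activated and 20.1, 17.7 and 17.5 CPM in the negative controls. The groups came close without overlapping, since FOXF1-activated replicate 2 lay just above negative control replicate 1. EIF2AK3 changed by 0.28 ± 0.10 on the log2 scale (edgeR adjusted p = 0.0321). An opposite-strand gene, AC104134.1, shares 781 of its exonic bases and was not tested. The change of EIF2AK3 was the smallest of the 10 and the only call among them that an alternative removed. It was lost when libraries were scaled by their totals (log2 fold change 0.20, adjusted p = 0.1075), with no filter on low counts (0.25, adjusted p = 0.0721), or when FOXF1-activated replicate 1 (adjusted p = 0.103) or 3 (0.0816) or negative control replicate 2 (0.103) or 3 (0.113) was left out.

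The other eIF2 kinases gave 1 fall, 1 weak rise and 1 gene without a call. EIF2AK1, which encodes HRI, fell to 99.6 ± 4.3 CPM across the libraries labelled FOXF1-activated, against 164 ± 3.11 CPM in the negative controls (log2 fold change -0.72, edgeR adjusted p = 2.12e-06). DELE1, which carries mitochondrial stress to HRI, fell to 39.1 ± 1.3 CPM in the libraries labelled FOXF1-activated, against 113 ± 9.04 CPM in the negative controls (-1.54, edgeR adjusted p = 1.09e-07). EIF2AK4, which encodes GCN2, averaged 120.4 ± 8.2 CPM in the libraries labelled FOXF1-activated, against 105.9 ± 5.9 CPM in the negative controls (0.19, edgeR adjusted p = 0.0363). The groups overlapped, with FOXF1-activated replicate 3 at 111 CPM and negative control replicate 3 at 112.4 CPM. The EIF2AK4 call was lost without either of FOXF1-activated replicates 1 and 2 or negative control replicates 1 and 2, with adjusted p of 0.0983 to 0.132. EIF2AK2, which encodes PKR, was at 122, 103 and 113 CPM across the libraries labelled FOXF1-activated and at 113, 100.4 and 53.2 CPM in the negative controls. Negative control replicate 3 lay far below the other libraries, and EIF2AK2 was not called (0.34, edgeR adjusted p = 0.216). Over the 17 genes of eIF2, its exchange factor eIF2B and their regulators, 11 were higher and 4 lower with a median log2 fold change of 0.38. Of all tested genes 29.2% were called higher and 31.5% lower. DNAJC3, a lumenal co-chaperone also known as an inhibitor of PERK and PKR, rose most, to 206 ± 17 CPM in the libraries labelled FOXF1-activated, against 44.7 ± 3.2 CPM in the negative controls (2.21), and EIF2B5, the catalytic subunit of eIF2B, rose by 0.87 on the log2 scale.

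ATF4 itself (chromosome 22, 39519695 to 39522685, plus strand) rose little. It had 921.5, 866 and 892 CPM across the libraries labelled FOXF1-activated and 638, 803 and 701 CPM in the negative controls. The controls spread more widely than the other group, and negative control replicate 2 came closest to it. ATF4 changed by 0.32 ± 0.08 on the log2 scale (edgeR adjusted p = 0.00533). Copies of ATF4 annotated as pseudogenes held at most 96 counts in a library, where ATF4 held 50945 to 66808.

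DDIT3 encodes CHOP, the transcription factor that ATF4 induces and that dimerises with C/EBP proteins (chromosome 12, 57516588 to 57521737, minus strand). It had 132, 169.7 and 171 CPM across the libraries labelled FOXF1-activated and 31.8, 39.9 and 32.2 CPM in the negative controls. The lowest library of the first group lay far above the highest control, and DDIT3 changed by 2.19 ± 0.12 on the log2 scale (edgeR adjusted p = 3.65e-07). DDIT3 shares 355 exonic bases with the methionyl-tRNA synthetase gene MARS1 on the opposite strand, and how strand was treated in counting is not given in the sources used here. DDIT3 also shares 58 exonic bases with MBD6 on the opposite strand, which was called higher (log2 fold change 0.41, edgeR adjusted p = 0.00114), and 105 with AC022506.1 on the same strand, which was not tested. MARS1 itself was at 332.5 ± 8.17 CPM across the libraries labelled FOXF1-activated and 318.6 ± 17.7 CPM in the negative controls, and was not called (edgeR adjusted p = 0.365).

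Of 12 other genes whose products pair with ATF4 or CHOP or act beside them, 6 rose and 3 fell, with a median log2 fold change of 0.51. Over all tested genes 29.2% were called higher and 31.5% lower. All of the 12 but NUPR1 encode leucine zipper factors. NUPR1, named here for that reason, was among the 3 falls (-1.80, edgeR adjusted p = 6.41e-04). ATF3, a repressor and activator that ATF4 and CHOP induce, was at 96.4, 98.0 and 112 CPM across the libraries labelled FOXF1-activated and at 7.42, 4.40 and 4.80 CPM in the negative controls (log2 fold change 4.20 ± 0.18, edgeR adjusted p = 9.24e-08). CEBPG, an ATF4 partner, rose by 1.19 on the log2 scale, and NFE2L2, the antioxidant factor NRF2, rose to 223 ± 15.1 CPM in the libraries labelled FOXF1-activated, against 111.5 ± 5.34 CPM in the negative controls. ATF5, the closest relative of ATF4 and itself under eIF2 control, moved the other way and fell to 5.48 ± 0.28 CPM in the libraries labelled FOXF1-activated, against 28.0 ± 1.5 CPM in the negative controls (-2.35, edgeR adjusted p = 7.62e-08). NFE2L1 fell by 0.79 on the log2 scale.

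TRIB3 and PPP1R15A close the loop on the pathway and were among the strongest rises. TRIB3, a pseudokinase that binds ATF4, CHOP and AKT and restrains them (chromosome 20, 362835 to 397559, plus strand), had 797, 824 and 823 CPM across the libraries labelled FOXF1-activated and 142, 181.5 and 155 CPM in the negative controls. Its log2 fold change, 2.35 ± 0.09, was the largest of the 10 genes (edgeR adjusted p = 3.90e-08). PPP1R15A encodes GADD34, the subunit that directs protein phosphatase to eIF2 and so ends the response (chromosome 19, 48872392 to 48876057, plus strand). It had 464, 536 and 502 CPM across the libraries labelled FOXF1-activated and 148, 155 and 142 CPM in the negative controls. Both groups were tight and far apart, and PPP1R15A changed by 1.76 ± 0.07 on the log2 scale (edgeR adjusted p = 4.50e-08). PPP1R15B, which encodes the constitutive eIF2 phosphatase subunit CReP, rose as well, to 199 ± 6.55 CPM in the libraries labelled FOXF1-activated, against 78.3 ± 4.6 CPM in the negative controls (1.35, edgeR adjusted p = 1.07e-07).

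SESN2 and DDIT4 both restrain the growth kinase complex mTORC1, and they moved in opposite directions. SESN2 encodes sestrin 2, a leucine-binding protein (chromosome 1, 28259527 to 28282491, plus strand). It had 148, 164 and 155 CPM across the libraries labelled FOXF1-activated and 53.1, 60.8 and 57.9 CPM in the negative controls, a change of 1.45 ± 0.07 on the log2 scale (edgeR adjusted p = 1.32e-07). DDIT4 encodes REDD1, which acts through the TSC complex and answers hypoxia and glucocorticoids as well as ATF4 (chromosome 10, 72273920 to 72276036, plus strand). It had 184, 199.6 and 197 CPM across the libraries labelled FOXF1-activated and 523, 575.5 and 551 CPM in the negative controls. Its log2 fold change, -1.51 ± 0.06, was the larger of the 2 falls (edgeR adjusted p = 5.05e-08). An antisense gene, DDIT4-AS1, shares 847 of its exonic bases and was not tested.

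The metabolic enzymes also parted. ASNS, asparagine synthetase, makes asparagine from aspartate and glutamine (chromosome 7, 97852118 to 97872542, minus strand). It had 169, 162 and 176 CPM across the libraries labelled FOXF1-activated and 66.2, 115 and 87.0 CPM in the negative controls. The control values differed more among themselves than those of the other group did, and the groups still did not overlap. ASNS changed by 0.92 ± 0.16 on the log2 scale, the largest error of the 10 genes (edgeR adjusted p = 7.77e-04). A gene on the same strand, AC079781.5, shares 1985 exonic bases with ASNS, averaged 5.43 CPM across the libraries labelled FOXF1-activated and 5.46 CPM in the negative controls, and was not called (edgeR adjusted p = 0.981).

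CHAC1 encodes a glutathione-degrading cyclotransferase, known as a target of ATF4, ATF3 and CHOP (chromosome 15, 40952962 to 40956519, plus strand). It had 12.1, 13.6 and 12.9 CPM across the libraries labelled FOXF1-activated and 21.1, 29.6 and 22.6 CPM in the negative controls. All 3 libraries of the first group lay below all 3 controls, on raw counts of 852 to 965 in the libraries labelled FOXF1-activated and 1680 to 2274 in the negative controls. Its log2 fold change was -0.93 ± 0.13 (edgeR adjusted p = 2.14e-04). CHAC1 thus fell in the libraries in which DDIT3 and ATF3 rose.

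VLDLR, a lipoprotein receptor of the cell surface (chromosome 9, 2621834 to 2660053, plus strand), also rose. It had 62.6, 66.3 and 60.2 CPM across the libraries labelled FOXF1-activated and 37.6, 38.7 and 38.7 CPM in the negative controls. The groups were well apart, and VLDLR changed by 0.72 ± 0.06 on the log2 scale (edgeR adjusted p = 5.68e-06). Its antisense gene VLDLR-AS1 shares 738 exonic bases and was not tested.

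ASNS and CHAC1 were also the 2 genes whose promoter windows held the core of the ATF4 response element, which is why their sites are shown. RefSeq promoter windows on GRCh38.p14, from 250 bases before to 50 bases after a start, were matched for all 10 genes (15 windows), and both strands were searched for TGATGNAA. It was found in 2 of the 15 windows and in 3.62% of all 35116. The ASNS site begins 68 bases before the start and the CHAC1 site 209 bases before it, reading on the opposite strand, and both lie within annotated GENCODE exons of the same genes. Each 30-base stretch is written 5′ to 3′ on the strand of its gene, with the matched core in capitals (ASNS at chr7:97872458-97872487, minus strand; CHAC1 at chr15:40953251-40953280, plus strand).
ASNS: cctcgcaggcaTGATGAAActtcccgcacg
CHAC1: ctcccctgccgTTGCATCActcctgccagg
ASNS rose and CHAC1 fell in the libraries labelled FOXF1-activated. The endoplasmic reticulum stress element (CCAAT and CCACG with 9 bases between them, both strands) matched none of the 15 windows and 0.0769% of all windows.

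Among the genes with the largest rises, DDIT3 and PPP1R15A are shown for 2 further motifs that were chosen after the sequences were seen. With the last base of the stress element left free (CCAAT and CCAC with 9 bases between them, a form that includes the full one, in 0.316% of all windows), the match was to DDIT3 alone among the 10 genes. It was found in 2 DDIT3 windows. The site shown begins 100 bases before a RefSeq start that falls inside the GENCODE span of the gene. PPP1R15A alone held the palindromic cAMP response element TGACGTCA (1.85% of all windows), 58 bases before its start. The stretches leave out annotated exons, and capitals mark the matches (DDIT3 at chr12:57520518-57520709, minus strand; PPP1R15A at chr19:48872171-48872391, plus strand).
DDIT3: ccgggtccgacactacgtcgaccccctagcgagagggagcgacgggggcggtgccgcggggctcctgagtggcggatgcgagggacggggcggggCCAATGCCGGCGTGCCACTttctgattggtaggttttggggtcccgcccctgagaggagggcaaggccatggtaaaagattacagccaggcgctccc
PPP1R15A: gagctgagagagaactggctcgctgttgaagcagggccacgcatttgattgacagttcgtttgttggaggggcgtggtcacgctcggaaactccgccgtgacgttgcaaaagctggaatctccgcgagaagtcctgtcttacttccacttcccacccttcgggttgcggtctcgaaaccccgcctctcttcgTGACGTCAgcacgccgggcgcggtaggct

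Levels between genes were compared per kilobase of annotated exon. In the libraries labelled FOXF1-activated ATF4 stood highest, at 355 ± 11 CPM per kilobase, followed by TRIB3 (237 ± 4.4), PPP1R15A (162 ± 12), DDIT3 (120.5 ± 16.9) and DDIT4 (94.1 ± 4.0). SESN2 (45.2 ± 2.3), ASNS (37.9 ± 1.5), VLDLR (6.75 ± 0.33), CHAC1 (6.24 ± 0.36) and EIF2AK3 (4.11 ± 0.32) came after them, and only VLDLR and CHAC1 were neighbours whose libraries overlapped. In the negative controls ATF4 (284 ± 33) and DDIT4 (267 ± 13) led with overlapping libraries. PPP1R15A (47.9 ± 2.0) and TRIB3 (46.5 ± 5.8) overlapped too, as did ASNS (20.1 ± 5.5) with both DDIT3 (26.5 ± 3.5) above it and SESN2 (16.6 ± 1.1) below it. CHAC1 (11.9 ± 2.2), VLDLR (4.11 ± 0.07) and EIF2AK3 (3.39 ± 0.26) were separate. DDIT4 thus ranked 5 in the libraries labelled FOXF1-activated and 2 in the negative controls, whereas TRIB3 ranked 2 in the first and 4 in the negative controls. EIF2AK3 was the lowest in both.

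The ratio of each gene to ATF4 within a library does not depend on how libraries are scaled. The log2 ratio of TRIB3 to ATF4 was -0.21, -0.07 and -0.12 in the libraries labelled FOXF1-activated and -2.17, -2.15 and -2.17 in the negative controls, a difference of 2.03. DDIT3 gained 1.855 on the same scale, PPP1R15A 1.43, SESN2 1.12, ASNS 0.62 and VLDLR 0.39, while the ratio fell by 1.24 for CHAC1 and by 1.83 for DDIT4. For these 8 genes the ratios of the groups did not overlap, at the smallest p that 3 against 3 libraries allow (exact two-sided permutation test, p = 0.1, adjusted over 9 ratios p = 0.1125), which cannot pass 0.05. The ratio of EIF2AK3 to ATF4 overlapped between the groups, with a difference of -0.05 (exact permutation p = 0.9).

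The paralogues of the 10 genes, which encode related proteins, gave 3 rises and 5 falls among 12 tested genes (median log2 fold change -0.24). That is near the share of all tested genes called, 60.7%, of which 29.2% were higher and 31.5% lower. TRIB1 rose to 51.1 ± 5.7 CPM in the libraries labelled FOXF1-activated, against 24.0 ± 1.9 CPM in the negative controls (log2 fold change 1.09), while TRIB2 fell to 2.31 ± 0.60 CPM in the libraries labelled FOXF1-activated, against 5.30 ± 0.63 CPM in the negative controls (-1.20). CHAC2, which degrades glutathione slowly and constitutively, fell by 0.91 on the log2 scale, close to the fall of CHAC1. SESN1 averaged 5.31 ± 0.27 CPM in the libraries labelled FOXF1-activated, against 7.08 ± 0.93 CPM in the negative controls (-0.41, edgeR adjusted p = 0.0354), a call lost without any library other than negative control replicate 1 (adjusted p of 0.0563 to 0.124). SESN3 (-0.42, edgeR adjusted p = 0.122) and DDIT4L (0.33, edgeR adjusted p = 0.153) were not called; without FOXF1-activated replicate 3, SESN3 passed (-0.60, adjusted p = 0.0475). LRP8, a lipoprotein receptor related to VLDLR, was not called (log2 fold change -0.07, edgeR adjusted p = 0.568).

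**Figure D2:**
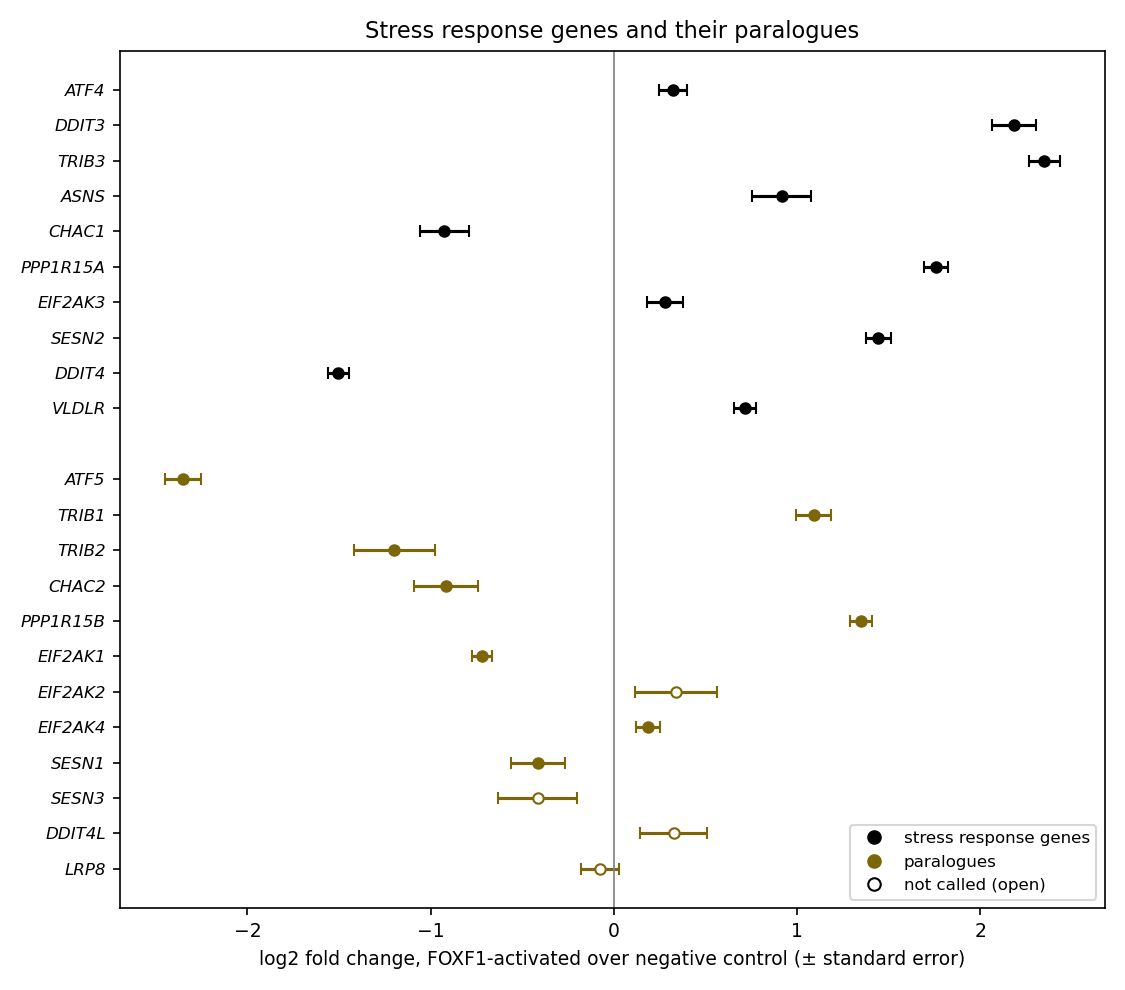
Fitted log2 fold change of the libraries labelled FOXF1-activated over the negative controls (horizontal axis, bars are standard errors) for the 10 stress response genes above and 12 paralogues below. Open points were not called; TRIB3 (2.35) and ATF5 (-2.35) mark the ends of the range.

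Other genes known as ATF4 targets differed between functions and also within them. Their counts, and those of the lists that follow, stand beside 29.2% of all tested genes called higher and 31.5% called lower. Of 14 genes for aminoacyl-tRNA synthetases and the tRNA export receptor, 11 rose and 1 fell, with a median log2 fold change of 0.73. XPOT, the export receptor, rose to 695 ± 26 CPM in the libraries labelled FOXF1-activated, against 273 ± 12 CPM in the negative controls (1.35), and the synthetase genes GARS1 (1.20), VARS1 (1.06) and CARS1 (1.01) rose with it. AARS1, for alanine, was the exception and fell to 352 ± 1.84 CPM in the libraries labelled FOXF1-activated, against 608 ± 45 CPM in the negative controls (-0.79, edgeR adjusted p = 2.54e-06).

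Genes of amino acid synthesis went mostly the other way, with 8 of 12 lower and 2 higher and a median log2 fold change of -0.32. ALDH1L2, a mitochondrial folate enzyme, fell to 2.66 ± 0.27 CPM in the libraries labelled FOXF1-activated, against 10.7 ± 2.7 CPM in the negative controls (-2.01), and CBS of transsulfuration fell to 21.2 ± 3.1 CPM in the libraries labelled FOXF1-activated, against 62.7 ± 7.9 CPM in the negative controls (-1.56). PYCR1, of proline synthesis, fell by 1.20 and GOT1, an aspartate transaminase, by 1.11 on the log2 scale. The 2 rises, SHMT2 (0.21, edgeR adjusted p = 0.0296) and CTH (0.33, edgeR adjusted p = 0.0387), were both lost without negative control replicate 1 (0.130 and 0.150), without negative control replicate 3 (0.103 and 0.0905) and when FOXF1-activated replicate 3 was dropped (0.0727 and 0.159). ASNS, which also makes an amino acid, therefore moved against most genes of its kind.

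Amino acid transporter genes were divided, 4 of 9 higher and 3 lower (median log2 fold change 0.04). The cystine transporter gene SLC7A11 rose to 694 ± 53 CPM in the libraries labelled FOXF1-activated, against 125 ± 1.82 CPM in the negative controls (2.47) and its heavy chain gene SLC3A2 to 989 ± 64 CPM in the libraries labelled FOXF1-activated, against 364 ± 37 CPM in the negative controls (1.44). The glycine transporter gene SLC6A9 fell to 6.04 ± 0.57 CPM in the libraries labelled FOXF1-activated, against 24.2 ± 1.7 CPM in the negative controls (-2.00) and the serine and alanine transporter gene SLC1A4 by 1.06 on the log2 scale. Among signalling and secreted targets of ATF4 and CHOP, 16 of 17 could be tested, 7 rose and 4 fell (median 0.29). GADD45A, a growth arrest gene, rose by 2.03, the mitochondrial chaperone gene HSPA9 by 1.16 and the death receptor gene TNFRSF10B, a CHOP target, by 1.04 on the log2 scale. VEGFA, an angiogenic factor, fell by 2.06 and the cell cycle inhibitor gene CDKN1A by 0.85.

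The other arms of the unfolded protein response were mostly higher. All 12 genes of the IRE1 and XBP1 arm rose, by 0.45 to 3.18 on the log2 scale (median 1.05). Among them were DNAJB9, a lumenal co-chaperone (3.18), DNAJB11 (2.10), the translocon-associated SSR1 (1.31) and XBP1 (1.14), the factor that IRE1 activates by splicing. In the ATF6 arm 11 of 14 genes rose and 3 fell (median 1.43). HERPUD1, of protein degradation at the endoplasmic reticulum, rose by 3.14, the disulfide isomerase gene PDIA4 by 2.65 and SEL1L by 1.65. ATF6B, a relative of ATF6, fell to 18.9 ± 1.9 CPM in the libraries labelled FOXF1-activated, against 106 ± 3.07 CPM in the negative controls (-2.49), and MBTPS1, the protease that first cuts ATF6, fell by 0.88. HSPA5, the chaperone BiP, which was named after its values were seen, had 7624, 8802 and 8859 CPM across the libraries labelled FOXF1-activated and 943, 713 and 676 CPM in the negative controls (3.44).

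**Figure D3:**
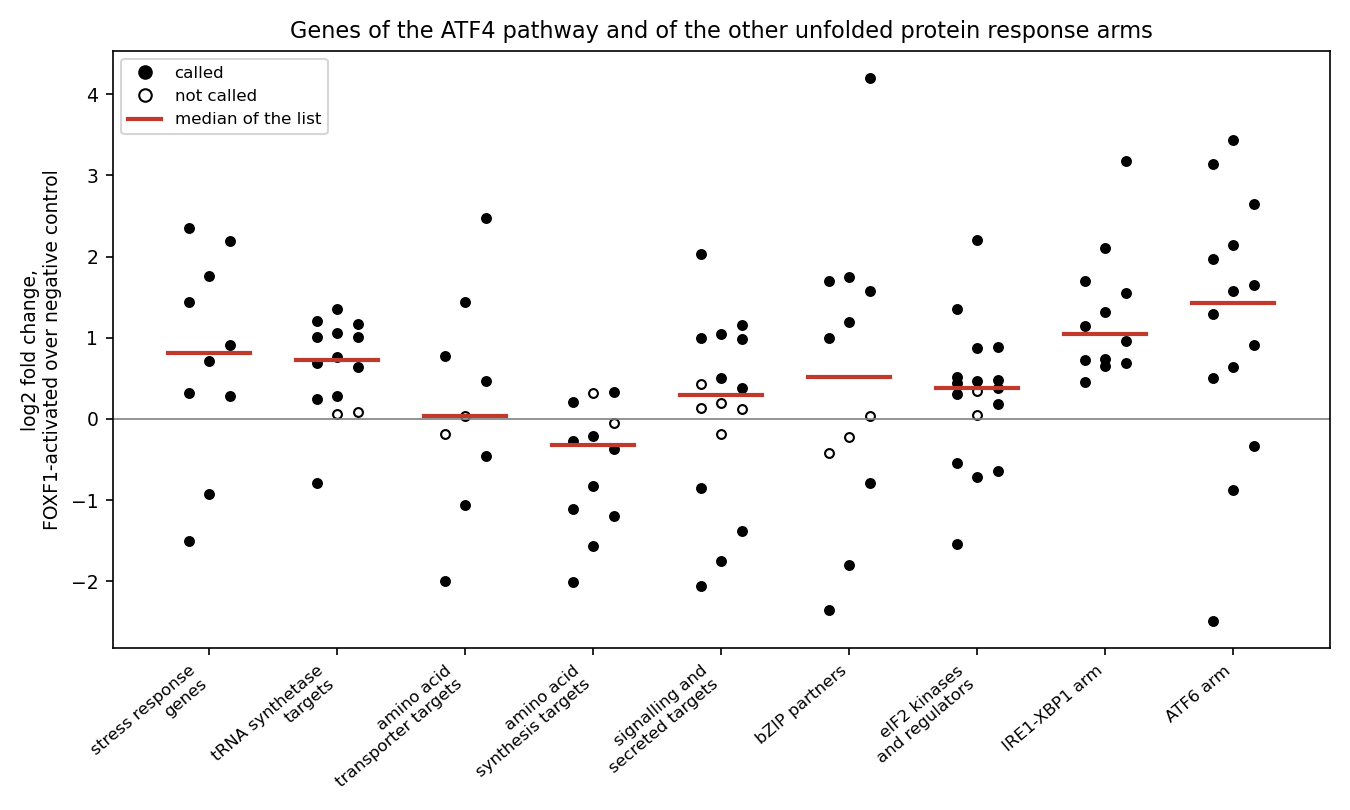
Fitted log2 fold change of the libraries labelled FOXF1-activated over the negative controls (vertical axis) for each tested gene of 9 lists (horizontal axis). Filled points were called, open points were not, and red bars are list medians, which run from -0.32 for amino acid synthesis to 1.43 for the ATF6 arm.

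The negative controls shared an order in part of the 10 genes and of the other ATF4 target genes. Replicate 1 was the lowest and replicate 2 the highest control for 7 of the 10 stress response genes, 11 of 12 amino acid synthesis genes and 13 of 14 tRNA synthetase genes, against 19.6% of the tested genes with a mean of at least 5 CPM. The same order held for 5 of 9 transporter genes and 9 of 16 signalling and secreted targets. The median log2 ratio of replicate 2 to replicate 1 was 0.26, 0.37 and 0.22 in the first 3 of these lists and 0.01 over those tested genes. Of the 10 genes ASNS showed the widest gap by ratio, 115 CPM in replicate 2 and 66.2 CPM in replicate 1. Of the IRE1 and XBP1 arm 1 of 12 genes and of the ATF6 arm 3 of 14 were ordered this way, with median ratios of -0.02 and -0.06. Single genes of these arms still differed between controls, such as HSPA5 and PDIA4, both highest in replicate 1. In the libraries labelled FOXF1-activated, replicate 1 was likewise lowest and replicate 2 highest for TRIB3, CHAC1, SESN2 and DDIT4, but not for ATF4, DDIT3 or ASNS. The order was not counted over the lists in that group. This order was noticed after the values were seen and carries no test, and the labels give no batch for these libraries. Without negative control replicate 1 or negative control replicate 2 all 10 genes kept their direction. EIF2AK3 alone lost its call, without negative control replicate 2.

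**Figure D4:**
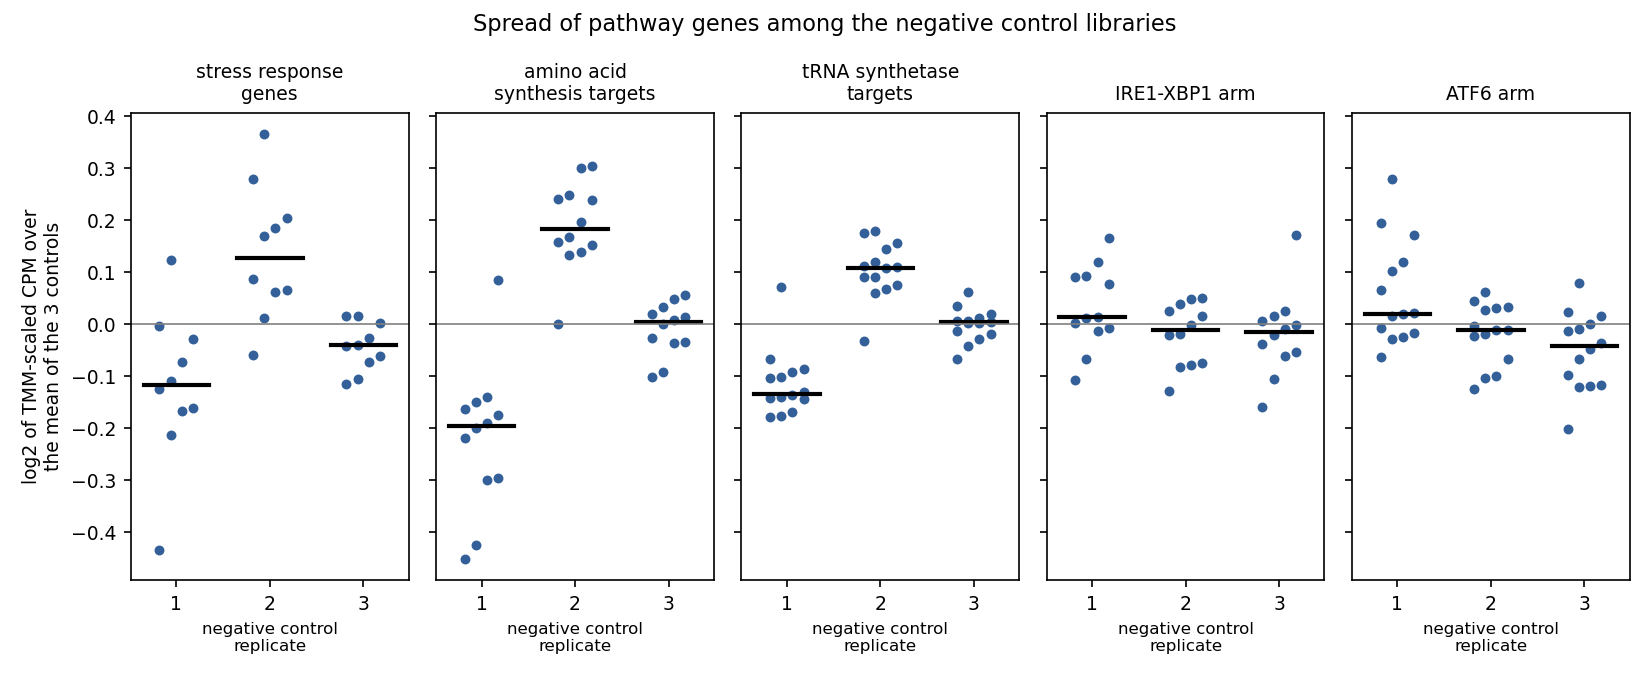
Log2 of the level in each negative control library over the mean of the 3 (vertical axis) for the genes of 5 lists. Points are genes and black bars list medians. The medians are low in replicate 1 and high in replicate 2 for the stress response, amino acid synthesis and tRNA synthetase genes. Single genes differ, such as EIF2AK3, which is highest in replicate 1. In the panels of the IRE1-XBP1 and ATF6 arms the medians lie near 0, but single genes differ there too. HSPA5 and PDIA4 are highest in replicate 1, and ATF6 and MBTPS1 in replicate 2.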

How the data were processed

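RNA sequencing of 6 libraries was used. The authors deposited whole-number counts per Ensembl gene; library totals differ, so they are not set to a common total. The submitters' processing notes name cutadapt 1.9, TopHat2 2.0.4 and GRCh38. How reads were counted, by strand or not, and against which annotation, is not given in the sources used here. Counts of 4, 8 and 12 were 2.36, 1.94 and 1.60 times as frequent as their neighbours, so depth may be overstated. Symbols matched 60401 identifiers. Genes were filtered with filterByExpr (minimum count 10, minimum total 15), scaled by TMM and tested with edgeR 4.0.16 (quasi-likelihood F test, R 4.3.3, no covariates), with Benjamini-Hochberg adjustment over all tested genes. DESeq2 1.42.0 was an alternative. The standard error is the log2 fold change divided by the square root of F. Pairs of replicates were not copies of each other (chi-square per degree of freedom 19.5 to 33.4), so none was treated as a duplicate. This statistic takes each count as a separate read, and overstated depth would raise it.

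The members, lists, tests and most alternatives were chosen with earlier results of these data known. The text names all 10 members, FOXF1, the eIF2 kinases, PPP1R15B, the paralogues, and in each other list up to 4 genes with the smallest p and up to 2 called against its majority. Lists were described by counts and medians. Over all tested genes same-numbered libraries did not deviate together (r = -0.0202, -0.000998 and -0.0206), and the numbers were not taken as pairs. Single genes can differ from this, and the labels do not state whether same-numbered libraries belong together. A further paralogue is not reported here.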

Additional observations from a re-analysis of the deposited data

How the results depend on the processing

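Of the 10 stress response genes, 9 kept their direction and call under all 14 alternatives, and EIF2AK3 kept its direction but lost its call in 6 of them. Over all tested genes, 5944 were called higher and 6407 lower. Upper-quartile scaling gave 6639 higher and 5743 lower, DESeq2 size factors 6179 and 6171, and library totals 5406 and 6929, so which direction held more genes turned with the scaling. Leaving out a library gave 5479 to 5760 genes higher and 5895 to 6334 lower. The replicate block gave 5630 and 6160, with 8 and 2 of the 10 stress response genes. Among the named genes it removed the calls of EIF2AK4 (edgeR adjusted p = 0.0714) and SESN1 (edgeR adjusted p = 0.0685). Under the block the standard error fell for some genes, such as CBS (0.123 to 0.068) and DDIT3 (0.121 to 0.082). It rose for others, such as SLC3A2 (0.080 to 0.091). The labels do not state whether same-numbered libraries belong together, so the block is an alternative only. Genes of amino acid synthesis called higher numbered 0 with library totals only and 0 with no filter, and 0 to 3 when a library was left out. Those called lower numbered 6 with upper-quartile scaling, and 6 to 8 when a library was left out. Signalling and secreted targets called higher, 7 in the main fit, numbered 6 with no filter and 9 with DESeq2 size factors. They numbered 10 with upper-quartile scaling, the DESeq2 Wald test, a filter of 1 CPM in 3 libraries or counts divided by 4. LRP8 turned to 0.026 under upper-quartile scaling and ran from -0.19 to 0.042 when a library was left out, and the EIF2AK3 to ATF4 ratio from -0.17 to 0.091. SESN1 lost its call under DESeq2 size factors and upper-quartile scaling, and EIF2AK4 under library totals and with no filter. No scaling moved the median of all genes by more than 0.099 on the log2 scale. The cause of these changes was not tested. CHAC1 (852 to 965 counts) was the lowest of the 10 genes in the libraries labelled FOXF1-activated and EIF2AK3 (1310 to 1601 counts) in the negative controls, and with counts divided by 4 all 10 kept their calls.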
